A study of Mus musculus with 8 samples.

Results

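The genes described here are 10 genes of the 2-cell embryo programme: the Zscan4 genes Zscan4a, Zscan4b, Zscan4c, Zscan4d, Zscan4e and Zscan4f, the pair Tcstv1 and Tcstv3, and Tmem92 and Zfp352. They are 10 of 50902 genes measured by RNA sequencing, found by symbol with 1 entry a gene. They were selected on their measured levels in these same libraries, because those levels differed between the groups compared below. Their differences between the groups are therefore given as a description, with no test.

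The cells were mouse embryonic stem cells (ESCs) of the E14 line, grown with LIF in 2i medium, which holds inhibitors of MEK and GSK3. All carried a Flag- and HA-tagged Baz2a transgene inserted by PiggyBac and made resistant to an siRNA, and all were transfected with siRNA against Baz2a and collected at day 3. In ESC + F/H-BAZ2Ar WT (4 libraries) the transgene encoded whole BAZ2A, a chromatin protein that binds RNA, and in ESC + F/H-BAZ2Ar ΔTAM (4 libraries) it lacked the RNA-binding TAM domain. Both lines were grown from single cells after puromycin selection and endogenous BAZ2A was lowered rather than removed, so a difference between the groups cannot be told apart from one between the clones.

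In the 2-cell mouse embryo, the zygotic genome first becomes widely active, and a set of genes is transcribed that is nearly silent before and after. A small, changing minority of ESCs in culture re-enters a like state, and Zscan4 is its best-known marker. ZSCAN4 is a nuclear protein with a SCAN domain and zinc fingers that is known for a part in telomere maintenance in ESCs, and the small TCSTV proteins, products of the Tcstv genes, have been linked to telomeres as well. In bulk RNA, more cells in that state and more RNA per such cell cannot be told apart.

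The libraries held 7276522 to 7709135 reads on genes in WT and 6580845 to 8690066 in ΔTAM. Baz2a, the targeted gene, was at 9.95, 10.3, 10.5 and 11.2 RPKM (reads scaled to gene length and library depth) in WT and at 17.0, 18.6, 18.5 and 18.9 RPKM in ΔTAM. Transgene and remaining endogenous transcript cannot be told apart in these values, and the ΔTAM libraries held more of them (log2 fold change 0.80, SE 0.046, limma with Benjamini-Hochberg adjusted p = 6.32e-05). All 7 ESC markers checked were present, with summed levels of 5174 to 5225 RPM (reads per 1000000 reads on genes) in WT and 4698 to 4897 in ΔTAM, and 3 of them (Sox2, Klf4 and Esrrb) were lower in ΔTAM. For a single marker called so, higher or lower means a limma adjusted p under 0.05, passed by 13.2% and 11.9% of all genes tested. Of the marker lists for other cells, fibroblast markers summed to 0.908 to 1.79 RPM in WT and 1.27 to 2.50 in ΔTAM with 1 of 5 at 0 throughout, and primitive endoderm markers to 6.13 to 7.56 and 8.49 to 9.82. Oocyte markers summed to 4.30 to 5.93 in WT and 7.02 to 10.4 in ΔTAM, with 2 of 6 at 0 throughout and Zp3, a gene of the egg coat, higher in ΔTAM. Markers of primed cells summed to 100.0 to 104 and 124 to 140.3, of which Dnmt3b was higher in ΔTAM (442 to 479 reads against 636 to 881) while Otx2 (6 to 11 against 1 to 3) and T had a lower RPKM in every ΔTAM than in any WT library, untested for Otx2 and not passing for T (adjusted p = 0.174), and Fgf5 was at 0. Trophoblast markers summed to 76.8 to 80.0 and 80.1 to 94.7, with Tfap2c higher and Eomes lower. The part of these differences in the results below was not tested.

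Sequence in front of the genes is shown first, because the windows found for 4 of the 6 Zscan4 genes share most of their letters, whereas that of Zfp352 is of another kind. RefSeq windows of the 250 bases before the start site (build GRCm38.p6) were matched for 5 members, Zscan4b, Zscan4c, Zscan4d, Zscan4f and Zfp352. The Zscan4c window lies at chr7:11005495-11005744 on the plus strand. Its capitals mark TGATTNAAT, core letters of the sequence bound by DUX, a homeodomain activator of the 2-cell programme, and TATAAA, the letters of a TATA box.

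Zscan4c: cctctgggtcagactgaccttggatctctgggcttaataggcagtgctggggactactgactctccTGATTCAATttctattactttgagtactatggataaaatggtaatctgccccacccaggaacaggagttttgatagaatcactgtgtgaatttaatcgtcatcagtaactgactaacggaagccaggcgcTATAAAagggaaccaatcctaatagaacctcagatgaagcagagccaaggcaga

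The 4 Zscan4 windows were 94.7% to 99.6% identical where they aligned. TATAAA stood once in each, beginning 31 bases before the start in Zscan4b and Zscan4f, 54 before it in Zscan4c and 65 before it in Zscan4d, and 12.4% of the 32851 mouse windows of that length held it on either strand. These distances depend on where each start is annotated. The Zscan4d window reaches down to chr7:11166149, inside the GENCODE gene, which ends at 11166159. TGATTNAAT stood once in Zscan4c and Zscan4f as TGATTCAAT, once in Zscan4b on the opposite strand and elsewhere, as TGATTAAAT, and not at all in Zscan4d, against 0.657% of all windows. The aligned 40-base stretch around the Zscan4c match is printed for each of the 4 genes, at chr7:10905188-10905227 (minus strand, Zscan4b), chr7:11005545-11005584 (plus, Zscan4c), chr7:11166320-11166359 (minus, Zscan4d) and chr7:11397738-11397777 (plus, Zscan4f). Capitals again mark TGATTNAAT.

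Zscan4b: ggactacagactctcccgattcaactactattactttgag
Zscan4c: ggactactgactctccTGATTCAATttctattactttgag
Zscan4d: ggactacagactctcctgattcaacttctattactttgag
Zscan4f: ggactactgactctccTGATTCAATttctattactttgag

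The Zfp352 window, at chr4:90218570-90218819 on the plus strand, is made largely of a tandem repeat. Its capitals mark TAATCC, a core of the letters that homeodomain proteins of the OTX type bind. It held TAATCC 9 times, the highest number in any of the 32851 windows and the single one with 5 or more, and 6.25% of windows held it at least once on either strand. TATAAA and TAATCC were chosen after the sequences had been read. TGCACAC, letters known to be bound by ZSCAN4, stood in none of the 5 windows on either strand and in 3.67% of all windows. A match is a description of the sequence and not evidence that a protein sits there.

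Zfp352: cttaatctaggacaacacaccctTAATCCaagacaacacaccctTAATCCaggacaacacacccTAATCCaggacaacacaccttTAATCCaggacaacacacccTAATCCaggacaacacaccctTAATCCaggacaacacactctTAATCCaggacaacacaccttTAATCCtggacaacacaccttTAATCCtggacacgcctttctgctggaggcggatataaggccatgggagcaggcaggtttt

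All 10 genes were transcribed at a low level in both groups and stood higher in ΔTAM. Summed over the 6 Zscan4 genes, the libraries held 56, 69, 63 and 86 reads in WT and 346, 316, 403 and 493 in ΔTAM. Scaled to depth this was 9.09 ± 1.54 RPM in WT and 51.6 ± 3.69 in ΔTAM (SD, n = 4 each), a ratio of 5.68. The lowest ΔTAM library stood 4.28 times above the highest WT library, so the groups did not overlap. The Tcstv pair gave a ratio of 5.16 (9 to 11 reads against 47 to 57), and all 10 genes together one of 5.35, from 84 to 112 reads in WT and 421 to 629 in ΔTAM.

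Each of the 10 genes had every ΔTAM library above every WT library, as had 15.2% of the 16143 genes tested; nothing is read from this count, since the genes were selected on this contrast. The genes tested had a mean of at least 0.01 RPKM, which all 10 members passed, Zfp352 through ΔTAM alone. Their log2 fold changes on log2(RPKM + 0.01) ran from 1.60 to 2.53 with a median of 2.21, beside a median of 0.0041 over all genes tested, and they held ranks 79 to 316 in that order.

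**Figure D1:**
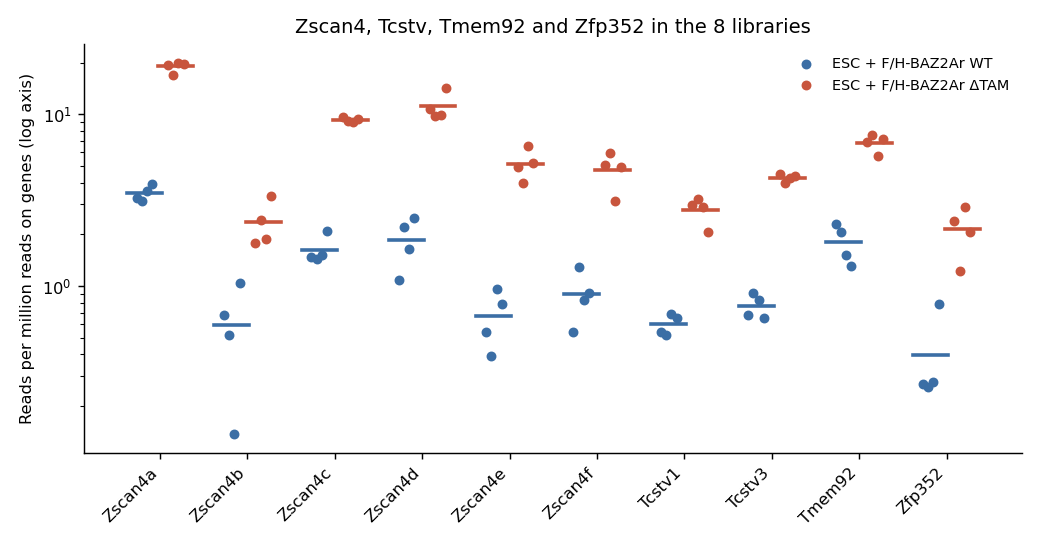
RPM (log axis) for the 10 genes, with 1 point for each library and a bar at the mean of the 4 libraries of a group, blue for ESC + F/H-BAZ2Ar WT and red for ESC + F/H-BAZ2Ar ΔTAM. All red points lie above all blue points of the same gene, with the narrowest gap in Zfp352 and Zscan4b.

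The Zscan4 genes lie within 608 kb of chromosome 7 (GRCm38, coordinates as in the file, which matched GENCODE vM21 for all 10 members). Zscan4c (chr7:11005745-11010547, plus strand) is the gene whose promoter drives the usual reporters of the state. It held 11, 11, 11 and 16 reads in WT and 65, 60, 72 and 82 in ΔTAM. The means were 0.0505 ± 0.0094 and 0.290 ± 0.0082 RPKM, a ratio of 5.74 (log2 fold change 2.32, SE 0.10), and its ΔTAM libraries lay closest together of any Zscan4 gene. Zscan4d (chr7:11161374-11166159, minus strand) is the member known as the main form in the 2-cell embryo itself. Its WT libraries held 8, 17, 12 and 19 reads and its ΔTAM libraries 72, 64, 79 and 123, which gave a ratio of 6.02 (log2 fold change 2.43, SE 0.23). ΔTAM replicate 4 stood highest for Zscan4d, but the groups were well apart, the lowest ΔTAM level being 3.97 times the highest in WT.

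Zscan4f (chr7:11397915-11402318, plus strand), whose coding sequence is 1518 bases long as are those of Zscan4c and Zscan4d, held 4, 10, 6 and 7 reads in WT. It held 34, 39, 25 and 43 in ΔTAM, a ratio of 5.35 (log2 fold change 2.10, SE 0.24). Its groups stood 2.42 times apart between the lowest ΔTAM and the highest WT library, with ΔTAM replicate 3 the lowest of its group.

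Zscan4a (chr7:10794242-10799057, minus strand), a transcribed pseudogene in RefSeq and an unprocessed pseudogene in GENCODE, held the most reads of the members. The WT libraries held 24, 24, 26 and 30 reads and the ΔTAM libraries 130, 111, 160 and 171, with means of 0.107 ± 0.011 and 0.590 ± 0.044 RPKM. The ratio of 5.50 (log2 fold change 2.36, SE 0.081) was the most precise among the members. Zscan4e (chr7:11306378-11310682, minus strand), protein-coding in GENCODE and a pseudogene in RefSeq, gave the highest ratio, 7.71 (log2 fold change 2.53, SE 0.22). It rested on 4, 3, 7 and 6 reads in WT against 33, 26, 52 and 45 in ΔTAM, so few WT reads that the ratio is loosely set, although the groups did not overlap.

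Zscan4b (chr7:10900740-10905050, minus strand), whose coding sequence is 1515 bases long, had the lowest level per kilobase of exon and the lowest ratio of the 6. Its libraries held 5, 4, 1 and 8 reads in WT and 12, 16, 15 and 29 in ΔTAM. The ratio was 3.99 (log2 fold change 1.67, SE 0.36), and the lowest ΔTAM library was 1.71 times the highest WT library. WT replicate 3, with 1 read, and ΔTAM replicate 4, with 29, stood at the ends of the range.

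The 3 further Zscan4 entries on the same stretch of chromosome 7, Zscan4-ps1, Zscan4-ps2 and Zscan4-ps3, are pseudogenes in RefSeq and protein-coding in GENCODE. They held 14, 8, 11 and 7, 14, 3, 10 and 14, and 6, 11, 10 and 23 reads in WT. In ΔTAM they held 27, 31, 41 and 52, 37, 31, 55 and 53, and 75, 59, 60 and 78. Their ratios of 3.72, 4.25 and 5.56 fell inside or just under the range of the 6 members, and with them added the summed Zscan4 ratio was 5.32. They may share reads with the members and are given as a description.

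How far the reads can be divided among the copies depends on their sequence. Along the GENCODE transcripts, the share of 100-base stretches (the read length in the labels; the study's methods also name 120 and 150 bases) found in no other gene was 70.4% for Zscan4d, 60.9% for Zscan4a, 27.2% for Zscan4c, 23.7% for Zscan4b, 19.4% for Zscan4f and 18.5% for Zscan4e. Zscan4b and Zscan4e shared 1328 such stretches, 75.4% of those of Zscan4b, and Zscan4c and Zscan4f shared 1204. The 4 other members were close to unique, at 92.2% for Tcstv3, 96.4% for Tcstv1, 99.4% for Zfp352 and 100% for Tmem92.

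How reads with several equal alignments were counted is not given in the sources used here. Of 885 genes whose every transcript of 200 bases or more is identical to a transcript of another gene, 19 (2.15%) were above 0 in any library, against 49.98% of all genes. These sets were not matched for gene type, length or level, so the shares do not settle how such reads were counted. Levels were set on 2 scales, per kilobase of exon and per 1000 stretches unique to the gene, because the deposited RPKM had been divided by the whole gene span with its introns. The second scale assumes that reads shared between genes were not counted.

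Per kilobase of exon, Zscan4a stood first in ΔTAM at 8.32 ± 0.626 RPM, above Tcstv3 (5.47 ± 0.288), Zscan4d (4.89 ± 0.912), Zscan4c (4.09 ± 0.136), Tmem92 (3.12 ± 0.360), Zscan4e (2.86 ± 0.585), Zscan4f (2.43 ± 0.602), Tcstv1 (1.99 ± 0.350), Zscan4b (1.31 ± 0.396) and Zfp352 (0.938 ± 0.306). Of the 9 steps in that order, 3 were wide enough that every library of the upper gene stood above every library of the next: Zscan4a over Tcstv3, Zscan4d over Zscan4c and Zscan4c over Tmem92. In WT the order was alike at its ends, from 1.52 ± 0.158 for Zscan4a to 0.174 ± 0.113 for Zfp352, and the step below Zscan4a was the 1 that separated every library.

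Per 1000 unique stretches the Zscan4 genes took another order. Zscan4e (15.8 ± 3.23 RPM) and Zscan4c (15.7 ± 0.522) stood first in ΔTAM and did not differ beyond their spread, followed by Zscan4a (14.3 ± 1.07) and Zscan4f (12.8 ± 3.16). Zscan4d (7.27 ± 1.35) and Zscan4b (5.64 ± 1.71) came lower, and Zscan4-ps1 was the lowest of the 9 Zscan4 entries at 3.38 ± 0.560. With stretches of 120 bases the 6 genes kept this order in ΔTAM, and with stretches of 150 bases the leading 4 lay between 11.2 and 12.1 RPM, with Zscan4e first and Zscan4c the last of them, while Zscan4d (6.02) and Zscan4b (4.10) stayed lowest; both lengths were added after the data had been seen. Which Zscan4 copy stands highest thus changes with the length it is divided by. The ratio between the groups cannot change, since a gene is divided by the same length in both.

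**Figure D2:**
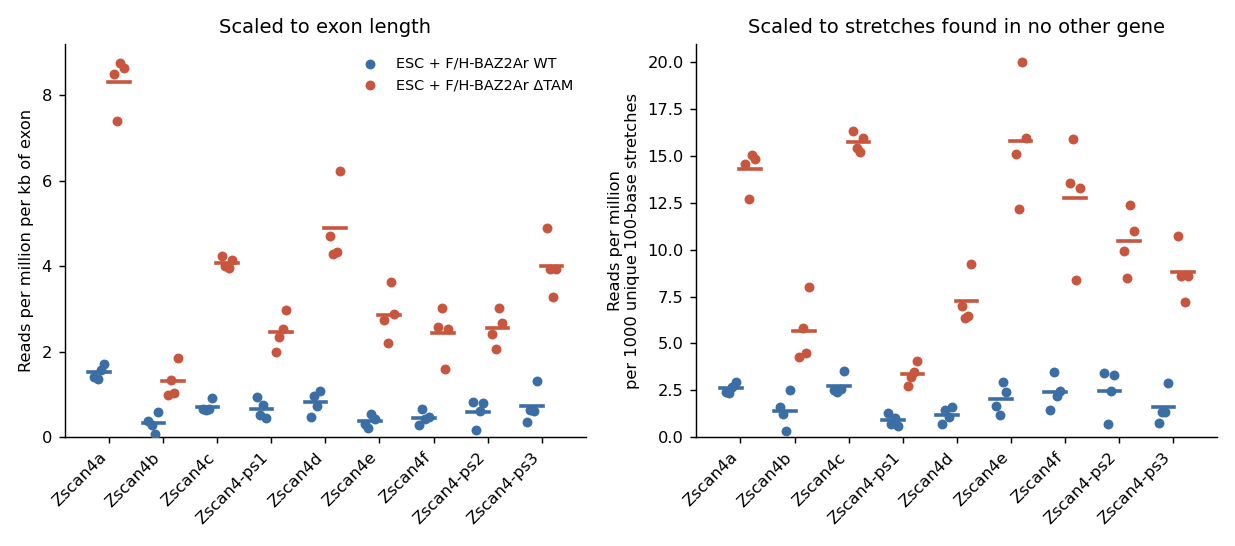
Levels of the 9 Zscan4 entries in chromosomal order, 1 point for each library and a bar at each group mean, in RPM per kilobase of exon (left) and per 1000 stretches of 100 bases found in no other gene (right). Zscan4a stands first on the left scale, and Zscan4e, Zscan4c, Zscan4a and Zscan4f lead on the right in ΔTAM, with Zscan4-ps2 among the leading entries there in WT.

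Tcstv1 (chr13:119893388-119894785, minus strand) and Tcstv3 (chr13:120316878-120318178, plus strand) lie 425 kb apart from end to end on chromosome 13, and their transcripts were 90.2% identical over 743 aligned bases. Tcstv1 held 4, 4, 5 and 5 reads in WT and 20, 21, 23 and 18 in ΔTAM. That is 0.0640 ± 0.0088 against 0.298 ± 0.053 RPKM, a ratio of 4.65 (log2 fold change 2.05, SE 0.15). Tcstv3 was the more abundant of the pair on either length scale, with 5, 7, 6 and 5 reads against 30, 26, 34 and 38. Its ratio was 5.58 (log2 fold change 2.36, SE 0.10), and its lowest ΔTAM library was 4.37 times its highest WT library.

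Tmem92 (chr11:94777217-94782703, minus strand), which encodes a transmembrane protein, had the lowest ratio of the 10. It held 17, 16, 11 and 10 reads in WT and 46, 50, 46 and 62 in ΔTAM. The ratio was 3.81 (log2 fold change 1.76, SE 0.16), and the groups stood 2.52 times apart at their nearest libraries. Zfp352 (chr4:90218820-90225702, plus strand), a zinc-finger gene of the 2-cell embryo, had the lowest level of the 10 on either length scale, with 2, 2, 2 and 6 reads in WT and 16, 8, 23 and 18 in ΔTAM. Its ratio of 5.41 (log2 fold change 1.60, SE 0.27) rested on 12 WT reads in all, 6 of them in replicate 4.

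The members scattered between libraries of a group about as much as counting reads gives. The variance of the depth-scaled reads over their mean, which is near 1 for counting alone, had a median of 0.776 over the 10 genes in WT (0.0862 to 1.78) and of 1.21 in ΔTAM (0.0771 to 2.90). Over the 3947 other genes with like mean reads in WT the median was 0.963 and the quartiles were 0.498 and 1.64. Over 4164 such genes in ΔTAM the median was 1.03, with quartiles of 0.520 and 1.82.

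With each group's mean removed, the summed Zscan4 level was highest in replicate 4 of both groups and lowest in WT replicate 1 and ΔTAM replicate 2. Among 9963 genes with at least 50 reads on average, the 5 whose level followed these small deviations most closely over the 8 libraries were Sptbn1 (Pearson's r = 0.970), a spectrin of the membrane skeleton, Zfp362 (0.958), Ddx4 (0.958), a germ-cell RNA helicase, Utp20 (0.948), of ribosome assembly, and BC002059 (0.946). These are the extremes of many genes over few libraries that share their depth, and they carry no test. Of the other members, Zfp352 followed the Zscan4 sum with r = 0.654, Tcstv1 with -0.0886, Tcstv3 with -0.102 and Tmem92 with -0.671. At the read numbers of these genes, nothing is read from the last 4 values.

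The size of the fold change of such low genes depends on the scale. On log2(RPKM + 0.01) the constant added is of the order of the WT levels of several members (0.0086 RPKM for Zfp352), which understates their change. With 0.1 RPKM added the median over the 10 fell to 1.22 and with 1 RPKM to 0.24, whereas limma voom on the whole reads recovered from the RPKM gave 2.40 for the 9 members with at least 10 reads on average. Zfp352 fell below that minimum. By voom, Zscan4e stood at 2.90 (SE 0.32), Zscan4d at 2.61 (SE 0.25) and Zscan4b at 2.09 (SE 0.40).

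**Figure D3:**
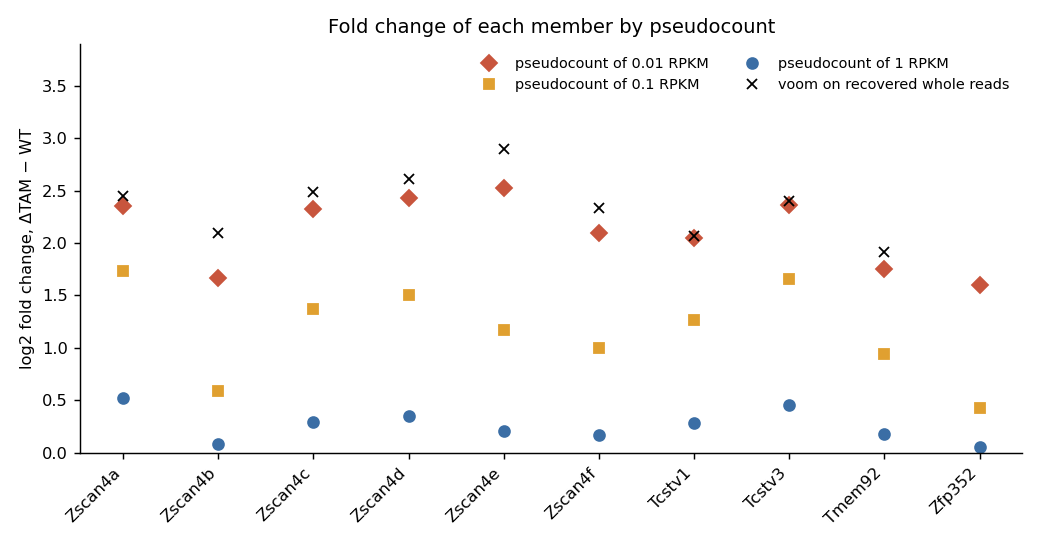
log2 fold change of each member (ΔTAM − WT) with 0.01, 0.1 or 1 RPKM added before the logarithm and by voom on recovered reads (no value for Zfp352). All are above 0, and they shrink as the added constant grows, to between 0.053 and 0.52 with 1 RPKM.

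Genes beside the members on the chromosomes were compared next, since position was not used in choosing them. Here and below, rose and fell mean a limma adjusted p under 0.05, which 13.2% of all genes tested passed in the higher and 11.9% in the lower direction. Within 500 kb of the outer Zscan4 genes lay 80 other entries, 67 of them at 0 in all 8 libraries. Inside the cluster itself, counted up to Zscan4-ps3, 44 other entries lay between the Zscan4 entries, 33 at 0 throughout and 3 at a level that could be tested, 1 of them (Gm7836, at 0 in WT) through ΔTAM alone. The other 2 rose, named after their values were seen. Gm7789 held 59 to 74 reads in WT and 81 to 112 in ΔTAM (log2 fold change 0.52, SE 0.092, limma adjusted p = 0.00604). Gm45551, which shares 59 of the 100-base stretches of Zscan4a, held 1, 0, 1 and 2 reads against 5, 2, 9 and 7 (adjusted p = 0.0243). Zik1, the tested gene outside the cluster, held 119 to 125 reads in WT and 110 to 176 in ΔTAM and did not pass the test (adjusted p = 0.182).

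Around the Tcstv genes, 16 of 40 entries could be tested. Between Tcstv1 and Tcstv3, 6 of the 8 tested rose and none fell. Of these 8, Gm20767, BC147527 and Gm21762 had a WT mean under 0.01 RPKM and reached the filter through ΔTAM alone, so they could enter the test only by being higher there, and 2 of them are among the 6. Outside the pair, 1 of 8 rose and 1 fell; this split was made after the values were seen. The entries that rose between them include AF067061, with 5, 4, 1 and 2 reads in WT and 20, 28, 46 and 50 in ΔTAM (log2 fold change 3.39, SE 0.41, limma adjusted p = 0.00113). B020031M17Rik (4, 5, 6 and 7 against 18, 22, 39 and 34 reads, adjusted p = 0.000437) and Gm21818 (2, 3, 2 and 3 against 10, 11, 18 and 27, adjusted p = 0.000491) also rose. Gm21818 shares 29 and 32 stretches of 100 bases with Tcstv1 and Tcstv3. AF067061 and Gm21761, which also rose, have coding sequences of 513 bases, as has Tcstv1, and Gm20767 has one of 507, as has Tcstv3. They are also on the list of other 2-cell-like genes below, so the neighbours that rose here were not a set independent of the members. Outside the pair, Hmgcs1, of cholesterol synthesis, rose by 0.53 on the log2 scale (adjusted p = 4.63e-05) and Nim1k, a protein kinase gene, fell by 0.47 (adjusted p = 0.0442).

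Around Tmem92, 3 of 6 tested entries within 100 kb rose, and of 11 farther out 1 rose (Lrrc59, by 0.17, adjusted p = 0.00476) and 1 fell (Pdk2, a pyruvate dehydrogenase kinase). The window was set after the values were seen, and the difference between near and far entries was not tested, nor was that around the Tcstv genes. The 3 near it were Gm11546 (2, 1, 6 and 2 reads against 11, 11, 9 and 16), Gm11543 (5, 7, 1 and 1 against 18, 29, 34 and 26) and Gm11544 (1, 0, 1 and 0 against 3, 3, 3 and 4), with limma adjusted p of 0.0114, 0.00739 and 0.0135. The 5 entries around Zfp352 were at 0 in all libraries. Over all 4 places, 13 of 37 tested neighbours rose, beside 13.2% of all genes, and 2 fell, beside 11.9%; 4 of the 37, of which 2 rose, were tested through ΔTAM alone. Nim1k and Pdk2 each lost their call in 7 of the 8 fits with 1 library left out.

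**Figure D4:**
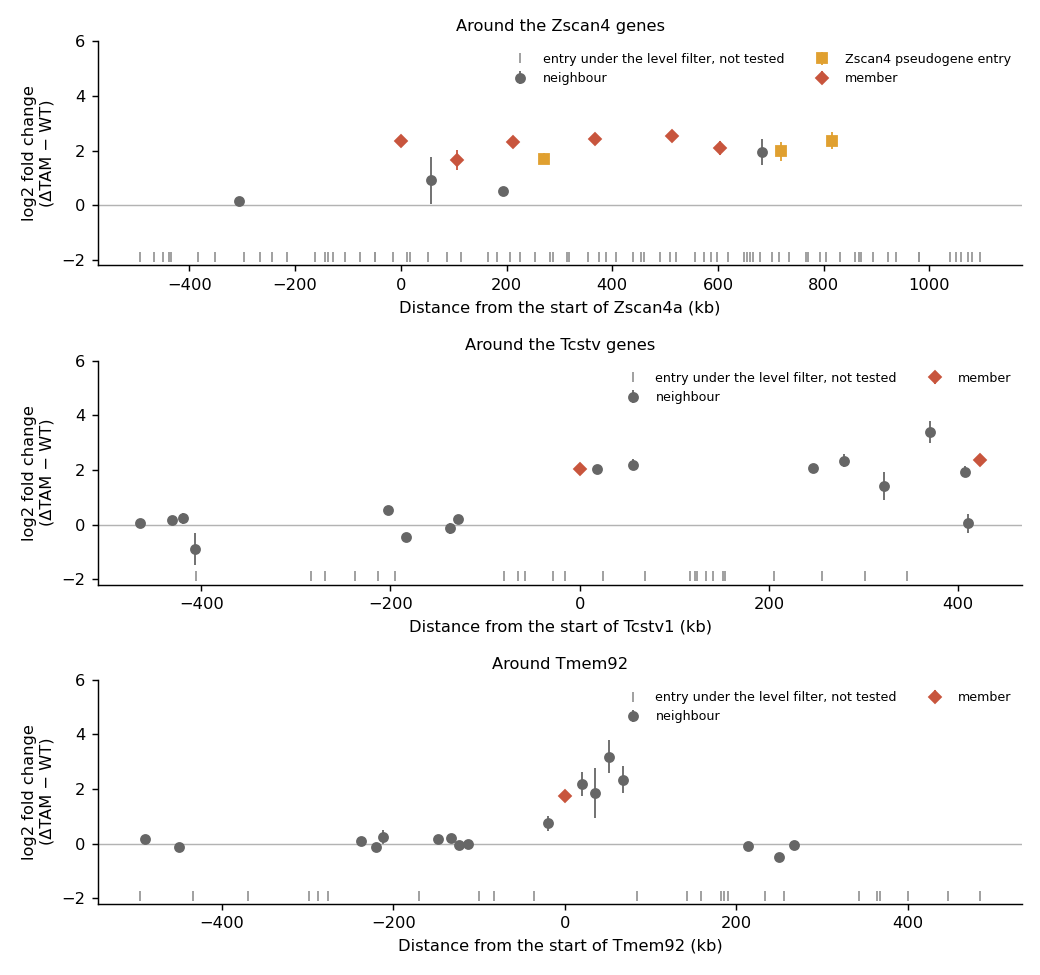
log2 fold change (ΔTAM − WT, bars of 1 SE) against distance in kb from Zscan4a, Tcstv1 and Tmem92, with members as diamonds, Zscan4 pseudogene entries as squares, other tested genes as circles and untested entries as ticks. The highest circles lie between Tcstv1 and Tcstv3 and near Tmem92, and most entries around the Zscan4 genes are untested.

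Of a list of 58 other genes of the 2-cell-like state found in the file, 15 were at 0 in all libraries and 30 could be tested. Among those at 0, BC061212, Tdpoz5 and Gm6763 had 0% of 100-base stretches unique to them and Cphx3 0.232%, while Rfpl4 had 100%. If reads shared between copies were not counted, a 0 in such copies does not show that RNA was absent. Of these 30, 22 rose (73.3%, beside 13.2% of all genes tested), 2 fell and 6 did not pass, with a median log2 fold change of 1.78 beside 0.0041 over all genes. The filter itself raises that share: Tdpoz4, Gm20767, Sp110 and Ubtfl1, 4 of the 22, had a WT mean under 0.01 RPKM and were tested through ΔTAM alone, as were 4.89% of all genes tested. The list was drawn up with earlier results of these data known and overlaps the neighbours above, so the count is a description. Highest after AF067061 stood Gm2056 (0, 0, 1 and 1 against 5, 2, 7 and 7 reads, adjusted p = 0.0141) and Tdpoz4 (0, 0, 0 and 1 against 6, 6, 5 and 6). Pramef25, of the Prame-like family, held 3, 1, 2 and 1 reads in WT and 20, 17, 24 and 21 in ΔTAM (adjusted p = 0.000176). Gm8300, of the Eif1a-like copies, held 11, 17, 8 and 10 against 83, 62, 105 and 116 (log2 fold change 2.81, SE 0.20, adjusted p = 0.00013). All 5 Usp17l entries, deubiquitinase genes, rose, by 1.75 to 2.70. The 2 that fell were Patl2, an oocyte RNA-binding factor, from 333 to 366 reads to 140 to 181 (log2 fold change -0.95, SE 0.058, adjusted p = 7.99e-05), and Btg1, an antiproliferative gene, by 0.39 (adjusted p = 0.00267). With the filter raised to a mean of 0.1 RPKM, 10 genes of the list were called higher.

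The known activators of the 2-cell-like state did not move together. Duxf3, the Dux gene of the file, held 0, 1, 1 and 2 reads in WT, where its mean was under the filter, and 1, 6, 7 and 6 in ΔTAM. It did not pass the test (limma adjusted p = 0.0669, from 0.0101 to 0.154 over the alternatives), nor in 14 of the alternatives, and passed in 2, 1 of them the fit without ΔTAM replicate 1. Dppa2 rose (log2 fold change 0.40, SE 0.091, adjusted p = 0.0170), while its partner Dppa4 fell by 0.14 (adjusted p = 0.0340). Nelfa, of the negative elongation factor, rose by 0.16 (adjusted p = 0.0381), with Dppa4 and Nelfa each losing the call in 7 of 8 fits that left out 1 library. Gata2, a zinc-finger factor, fell from 21 to 25 reads to 6 to 10 (log2 fold change -0.95, SE 0.15, adjusted p = 0.00401), and Nr5a2, an orphan nuclear receptor, fell by 0.37 (adjusted p = 0.00328). Obox6 did not pass (10 to 16 reads against 14 to 17, adjusted p = 0.248), and Obox1, Obox2, Obox3, Obox5 and Mbd3l2 held at most 1 read in any library.

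Of 32 genes known to restrain the state, all tested, 9 rose (28.1%, beside 13.2%) and 4 fell (12.5%, beside 11.9%), and the median log2 fold change was 0.049. With 1 library left out, 6 to 11 rose, the lowest number without WT replicate 1, ΔTAM replicate 2 or ΔTAM replicate 3, and 0 to 2 fell. Changes were small. The largest rises were in Hdac1 (0.32, SE 0.033, limma adjusted p = 0.000574), a histone deacetylase, Max (0.27, adjusted p = 0.0116), the partner of Myc and Mga, Daxx (0.24, adjusted p = 0.0278), an H3.3 chaperone, Morc3 (0.23, adjusted p = 0.00461) and Setdb1 (0.22, adjusted p = 0.0030), an H3K9 methyltransferase. Those that fell were Smchd1 (by 0.26, adjusted p = 0.0429), Ehmt1 (by 0.17, adjusted p = 0.0450), E2f6 (by 0.16, adjusted p = 0.0336) and Ezh2 (by 0.13, adjusted p = 0.0374). These 4 lost the call in 6 to 8 of the 8 fits with 1 library left out, and Daxx in 5.

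Telomere genes passed the test about as often as all genes tested, so nothing is read from their count. The share over all genes includes many of lower level. With the filter at a mean of 0.1 RPKM, 1804 of 9000 genes rose and 1439 fell, and the telomere genes were not counted at that filter. Of 31 tested, 4 rose and 4 fell (12.9% each, beside 13.2% and 11.9%), with a median log2 fold change of -0.082, and 5 passed without ΔTAM replicate 2 or without ΔTAM replicate 3. Those that rose were Wrap53 (0.44, SE 0.034, limma adjusted p = 0.000167), a telomerase holoenzyme protein, Terf2 (0.32, adjusted p = 0.00354), a shelterin protein, Daxx, counted in both lists, and Zbtb48 (0.23, adjusted p = 0.00452), a telomere-binding zinc-finger protein. Those that fell were Tert, the telomerase reverse transcriptase (by 0.55, SE 0.078, adjusted p = 0.00237), Dmc1, a meiotic recombinase (by 0.54, adjusted p = 0.0403), Ctc1 of the CST complex (by 0.35, adjusted p = 0.000470) and Acd of shelterin (by 0.33, adjusted p = 0.0273). Dmc1 lost the call in 7 and Acd in 4 of the 8 fits with 1 library left out.

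**Figure D5:**
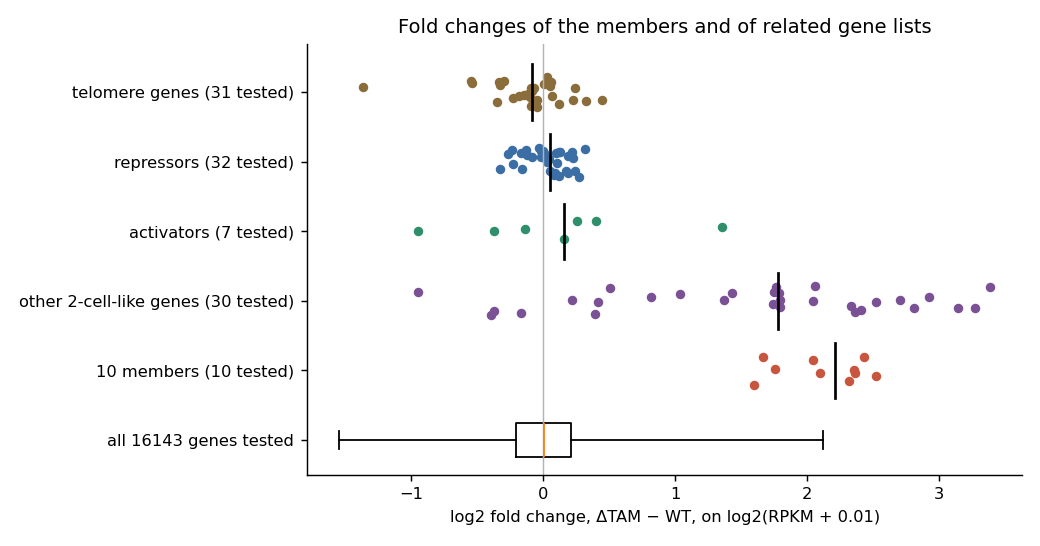
log2 fold change (ΔTAM − WT) on log2(RPKM + 0.01) for all 16143 genes tested (box: quartiles, whiskers: 1st to 99th percentile) and, as points with the median as a bar, for the 10 members and 4 lists. The members and most other 2-cell-like genes lie at the far right, while activators, repressors and telomere genes lie on both sides of 0.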

How the data were processed

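PolyA RNA libraries (TruSeq Stranded, single reads of 100 bases per the labels) were made from 4 samples of each group. The submitters' processing notes name FastQC, Trimmomatic 0.36, STAR, DESeq2 and GRCm38 (mm10). The study's methods state default STAR settings for the alignment. The annotation, the strand setting and the counting of multiply aligned reads are not given in the sources used here. The deposited table holds RPKM, which the authors computed from exon coverage. Of its 51288 entries, 50902 genes were kept, 1 entry a gene. Low values were whole multiples of 1 read divided by the gene span, and reads recovered so came out whole (within 0.02) for 99.5% to 99.6% of values above 0.

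Fold changes were fitted with limma 3.58.1 (R 4.3.3; lmFit, eBayes with trend) on log2(RPKM + 0.01) for the 16143 genes whose mean reached 0.01 RPKM, with Benjamini-Hochberg adjustment over all of them, and tested on simulated data, where 84.0% of genes changed by a log2 of 1 and 99.0% of those changed by 2 were recovered among 16010 genes, with 10 false calls. The simulated reads had almost no spread beyond counting, and only genes above a minimum mean of reads were changed. The share recovered may therefore be lower, and false calls more frequent, in the real libraries. Alternatives were other pseudocounts, filters and scalings, limma voom on recovered reads, a replicate block and leaving out each library. Replicates are numbered in the labels, which do not say whether they are separate cultures, so p-values measure only the spread between these samples, which may be technical. Members and lists were chosen with earlier results of these data known, so no test is given for the members. Named genes were the members, Baz2a, all activators, up to 5 called genes of each list in each direction by size of change, and the 5 genes of most like pattern. Any other gene named was picked after its values were seen. These include marker genes, the Usp17l entries, further genes of the lists, and neighbours such as Hmgcs1, Lrrc59, Zik1 and Gm11546.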

Additional observations from a re-analysis of the deposited data

Results flagged for a closer look

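In 7 of 104 groups of 4 libraries 1 library stood far from the other 3 by Dixon's 95% critical value; chance gives about 1 in 20 groups. For the members these were WT replicate 4 of Zscan4c (0.0646 RPKM, the others 0.0445 to 0.0470) and of Zfp352 (0.0169 RPKM, the others 0.00564 to 0.00597), the latter from 6 reads against 2. In the other lists they were WT replicate 4 of Tdpoz4 (0.0174 RPKM from 1 read, the others at 0), WT replicate 2 of Btg1 (1.55 RPKM), WT replicate 1 of Acd (1.14 RPKM), ΔTAM replicate 4 of Nr5a2 (0.0802 RPKM) and ΔTAM replicate 3 of Ctc1 (1.24 RPKM).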

How the results depend on the processing

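Each member had a positive log2 fold change in every alternative that gave it a value; Zfp352 had none by voom, and Zfp352, Zscan4b and Zscan4f none with the filter at 0.1 RPKM. Their median of 2.21 became 1.22 with 0.1 RPKM added, 0.24 with 1 RPKM, 2.36 for the 7 members whose mean reached 0.1 RPKM and 2.40 by voom, and ran from 2.12 to 2.30 with 1 library left out. The summed Zscan4 ratio of 5.68 ran from 5.38 to 6.16 and that of the 10 members, 5.35, from 5.17 to 5.64 with 1 library left out; both were highest without WT replicate 4. Genes higher and lower numbered 2125 and 1925, 1869 and 2202 with quantile normalization, 2770 and 2773 by voom, 709 and 648 at the study's thresholds, and 1625 to 1923 and 1410 to 1687 with 1 library left out. Other 2-cell-like genes called higher went from 22 to 10 with the filter at 0.1 RPKM, which leaves fewer genes to test, and ran from 19 to 23 with 1 library left out. Called regulators (18) ran from 10 to 17, at 10 or 11 without any 1 library but WT replicate 3 or ΔTAM replicate 1, telomere genes (8) from 5 to 8, and neighbours (15) from 12 to 14. The same-numbered libraries of the 2 groups correlated by 0.0465, 0.117, 0.0795 and 0.1504 in their deviations, not all above 0.1, so the numbers were not taken as pairs. With a replicate block the calls fell to 1608 higher and 1370 lower and to 12 regulators and 5 telomere genes, Duxf3 passed (adjusted p = 0.0312), and the paired Zscan4 ratio was 5.73. Zscan4b, Zscan4e, Tcstv1 and Zfp352 rest on 12 to 20 WT reads in all, which limits how closely their ratios are known.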
